A study of Homo sapiens with 16 samples.

Results

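TYR, TYRP1 and DCT, the 3 genes that encode the enzymes of melanin synthesis, were followed through 14 CUT&RUN peak lists of the human melanoma cell line WM164. The members were chosen by gene symbol and make up 3 of the 20033 protein-coding genes of the RefSeq table. Every peak that overlapped a gene body or the 20 kb on either side of it was taken, which gave 72 peaks, of which 41 lay in the TYR window, 7 in the TYRP1 window and 24 in the DCT window. No other protein-coding gene lies in these windows, which also hold the pseudogene CBX3P7 (TYR), the long noncoding RNA genes LURAP1L-AS1 (TYRP1) and LOC124903191 (DCT) and a tRNA gene (DCT). CUT&RUN uses an antibody to tether a nuclease to its target in nuclei, so that DNA fragments around bound sites are released and sequenced. WM164 cells overexpressed either GFP (GFP cells, the control) or the transcription factor MAFG (MAFG cells), and both lines were profiled with anti-MAFG (3 libraries each), anti-MITF (3 libraries each) and anti-H3K4me3 (1 library each). An anti-rabbit IgG sample of each line completes the 16 samples and was not analysed here. The expression vector, the time after its introduction, and whether a line is 1 clone or a pool are not given in the sources used here. Nothing in the labels says that replicates came from separate cultures, so p-values measure the spread between libraries, which may be technical.

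Melanin is made in melanosomes of pigment cells. Tyrosinase (TYR) carries out the rate-limiting oxidation of tyrosine, dopachrome tautomerase (DCT) converts dopachrome into the carboxylated indole precursor of eumelanin, and TYRP1 is a related melanosomal protein that stabilises tyrosinase and acts in the later steps. MITF, the master transcription factor of the melanocyte lineage, is a basic helix-loop-helix leucine zipper protein that binds E-boxes, and the M-box, an E-box with a flanking T, was described in promoters of these genes. MAFG is a small MAF protein, a basic leucine zipper factor without an activation domain of its own, which pairs with other small MAF proteins or with CNC factors such as NRF2 on MAF recognition elements. H3K4me3 marks the start sites of active genes.

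The RefSeq sequences of the 250 bases before each start (GRCh38.p14, read 5′ to 3′ on the strand of the gene) are shown because they hold the letters that MITF is known to bind. Capitals mark each match to the M-box core TCATGTG or the E-box CATGTG, on either strand. The stretches lie at chr11:89177625-89177874 on the plus strand for TYR, chr9:12693135-12693384 on the plus strand for TYRP1 and chr13:94479683-94479932 on the minus strand for DCT.
TYR: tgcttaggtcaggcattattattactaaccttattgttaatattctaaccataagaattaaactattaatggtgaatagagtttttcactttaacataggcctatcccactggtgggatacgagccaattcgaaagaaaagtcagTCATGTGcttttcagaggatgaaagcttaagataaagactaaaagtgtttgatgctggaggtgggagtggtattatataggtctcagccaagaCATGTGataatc
TYRP1: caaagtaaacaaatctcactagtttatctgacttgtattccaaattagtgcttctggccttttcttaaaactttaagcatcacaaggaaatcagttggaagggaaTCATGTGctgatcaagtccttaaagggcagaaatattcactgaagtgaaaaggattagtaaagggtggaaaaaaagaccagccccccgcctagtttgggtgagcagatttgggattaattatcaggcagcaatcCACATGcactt
DCT: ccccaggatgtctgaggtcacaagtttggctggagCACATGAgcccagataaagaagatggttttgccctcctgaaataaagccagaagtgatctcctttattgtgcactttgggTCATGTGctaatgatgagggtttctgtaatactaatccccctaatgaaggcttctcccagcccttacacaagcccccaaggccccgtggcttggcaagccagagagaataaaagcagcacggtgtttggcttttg
All 3 promoters held TCATGTG, a 7-letter match found in 2.0% of 22198 RefSeq promoters of the same length. Its first base lay at position -105 for TYR and -145 for TYRP1, counted back from the start, and at -135 for DCT with a further copy on the opposite strand that spans -215 to -209. In all 3 the plus strand copy was followed by the letters CT, and the 9-letter run TCATGTGCT was found in 31 promoters (0.140%) of 30 genes. That longer run was chosen after the sequences were seen. Besides the 3 enzymes those genes included GPNMB and GPR143, the melanosomal glycoprotein and the melanosomal receptor of the pigment gene list described further on. TYR and TYRP1 each had a second CATGTG next to the start, at -12 to -7 and, on the opposite strand, at -11 to -6. The E-box CACGTG, present in 7.37% of promoters, was in none of the 3. Of the MAF-type letters, TGCTGA (12.4% of promoters) occurred in TYRP1 at -140 to -135, where its first letters overlap the M-box core. TGAGTCA (3.45%) and TGANNNNGC (35.0%) were in none of the 3 windows. The GC content was 36.0% for TYR, 39.6% for TYRP1 and 49.2% for DCT, against a median of 62.0% over all promoters. A match is a run of letters and was not tested as a binding site.

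The peak lists differed in length between the lines, and this bears on every count that follows. In GFP cells the anti-MAFG lists held 26221, 23409 and 14879 peaks and the anti-MITF lists 19828, 20117 and 20102. In MAFG cells the anti-MAFG lists held 1836, 1849 and 2818 peaks and the anti-MITF lists 2491, 2116 and 2495. The H3K4me3 lists held 13579 and 11580 peaks. As a check of the cell type, H3K4me3 lay within 1000 bp of a gene end or start of SOX10, MITF, PMEL and MLANA, all 4 pigment lineage markers, in both lines. It lay at 0 of 8 markers of keratinocytes, fibroblasts, leukocytes and endothelium (KRT5, KRT14, COL1A1, COL1A2, PDGFRB, PTPRC, PECAM1, CDH5) in either line.

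**Figure D1:**
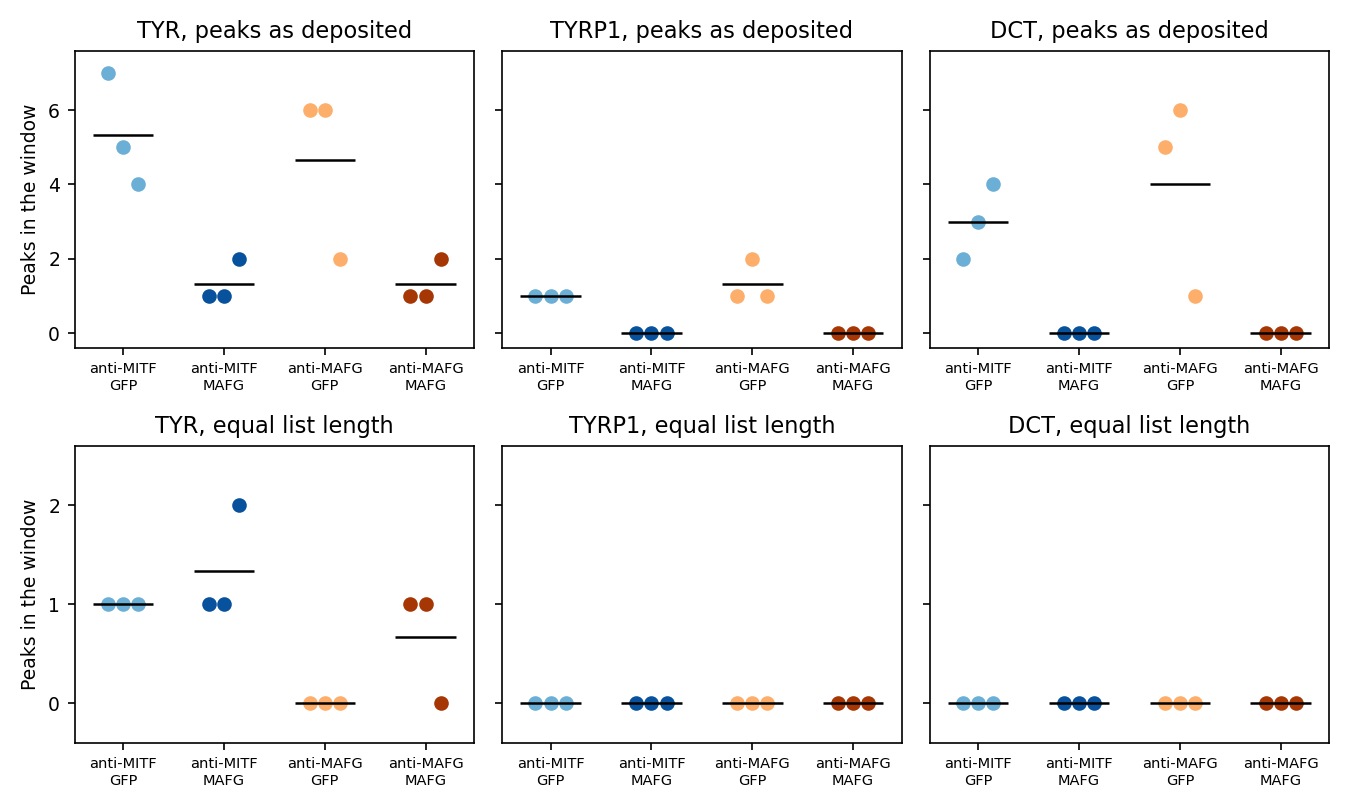
Number of peaks in the window of each gene (gene body with 20 kb on either side) in each of the 12 anti-MAFG and anti-MITF libraries, 1 point per library and a line at the group mean, with all deposited peaks and with lists of equal length. With all deposited peaks, the MAFG-cell libraries sit at 0 for TYRP1 and DCT, and at 1 or 2 for TYR.

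TYR lies on the plus strand at chr11:89177875-89295759 (GRCh38) and was the enzyme gene with the most peaks. With anti-MITF the TYR window held 7, 5 and 4 peaks in the GFP libraries and 1, 1 and 2 in the MAFG libraries. With anti-MAFG it held 6, 6 and 2 peaks in the GFP libraries, against 1, 1 and 2 in the MAFG libraries. The groups did not overlap with anti-MITF, and they met at 2 peaks with anti-MAFG, where GFP replicate 3 had as few as MAFG replicate 3. Of the 12062 genes tested further on, 62.5% had more peaks in every GFP library than in any MAFG library with anti-MITF, and 45.2% with anti-MAFG. The TYR peaks of all factor lists merged into 8 sites, 5 of which had peaks with both antibodies in GFP cells. The share of such sites over the genome was not counted.

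The TYR site with the highest anti-MITF enrichment had its best summits upstream of the start. Once all overlapping peaks were joined it was chr11:89174968-89178999, a region that also covers the start at 89177875. Its best anti-MITF summits in GFP cells were 2.05, 1.61 and 1.64 kb upstream of the start, with the authors' fold enrichment at 15.1, 18.4 and 14.8. Those folds ranked 541, 154 and 549 in their lists, which puts them at percentiles 97.2, 99.2 and 97.3 of the peaks of each list. In MAFG cells the best summits lay 1.67, 1.68 and 2.19 kb upstream, with folds of 9.02, 8.63 and 8.46 and percentiles of 83.2, 78.8 and 79.7 in much shorter lists. The joined region was the merged anti-MITF region of the 3 windows that was called in all 6 libraries of the antibody, a state shared by 3.84% of 29820 merged anti-MITF regions. Anti-MITF peaks covered the TYR start itself in each GFP library, in replicate 1 as a separate peak (summit 0.19 kb downstream, fold 6.95). No anti-MITF peak of MAFG cells came within 1000 bp of the start, so only the upstream part was called in both lines. With anti-MAFG it was called in GFP replicates 1 and 2 alone, where the peaks nearest that summit, 1.41 and 1.44 kb upstream, had folds of 4.82 and 5.71. No anti-MAFG peak of MAFG cells overlapped it.

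Signal height at this site was also read from the deposited statistics. Fold and p of the peaks tried, 1500 per library, and of all 72 member peaks fitted the formula that MACS2 uses for them, if summit coverage is a whole fragment count multiplied by 1 factor per library, and this gave the fragments over each summit. The anti-MITF summits of the TYR upstream site were covered by 20, 28 and 21 fragments when GFP was overexpressed, and by 33, 36 and 23 when MAFG was. The mean coverage of the genome was not measured, and the lowest background recovered in a library was taken for it. Relative to this mean the summits stood at 51.4, 53.2 and 47.3 times for the GFP line and 65.5, 65.3 and 51.4 times for the MAFG line. The ranges of both lines overlapped, and the best summit of no MAFG library was below the lowest of the GFP libraries. The authors' folds, which are taken over the local background, had the opposite order, at 14.8 to 18.4 against 8.46 to 9.02. The scaled local background there was 0.389, 0.580 and 0.489 for the GFP line and 1.0, 1.0 and 0.644 for the MAFG line. The lowest scaled background of each library was 0.389, 0.526 and 0.444 against 0.260, 0.249 and 0.251. No direction is therefore given for this site. In MAFG cells every anti-MITF peak of the TYR window lay in this element, upstream of the start. In GFP replicate 1 the separate anti-MITF peak over the start also had 20 fragments at its summit, or 51.4 times the mean.

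**Figure D2:**
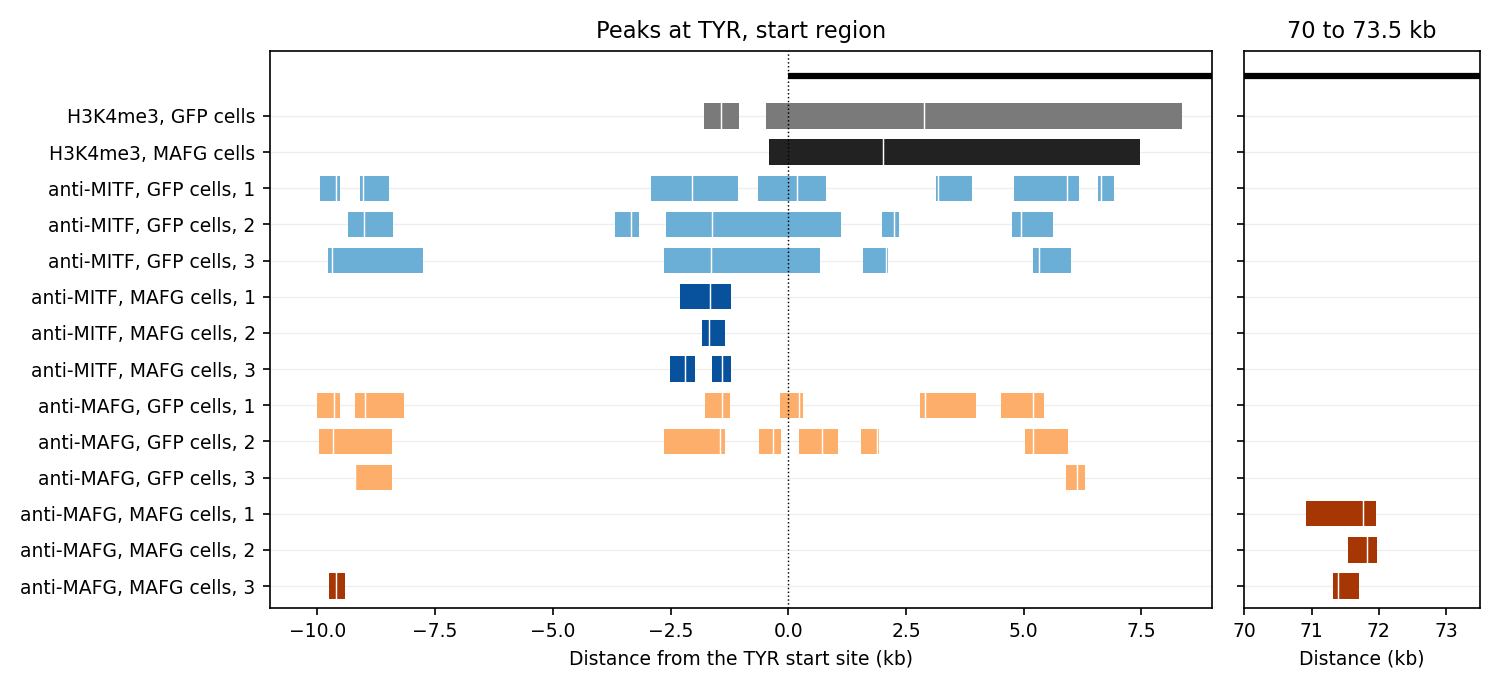
Peaks in the TYR window by library, drawn against distance from the start in kb, with 1 row per library, bars for peaks, a white line at each summit and the gene as a black bar on top. The upstream element holds an anti-MITF peak in 6 of 6 libraries, and the peak 71.8 kb into the gene appears in the 3 anti-MAFG libraries of MAFG cells.

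**Figure D3:**
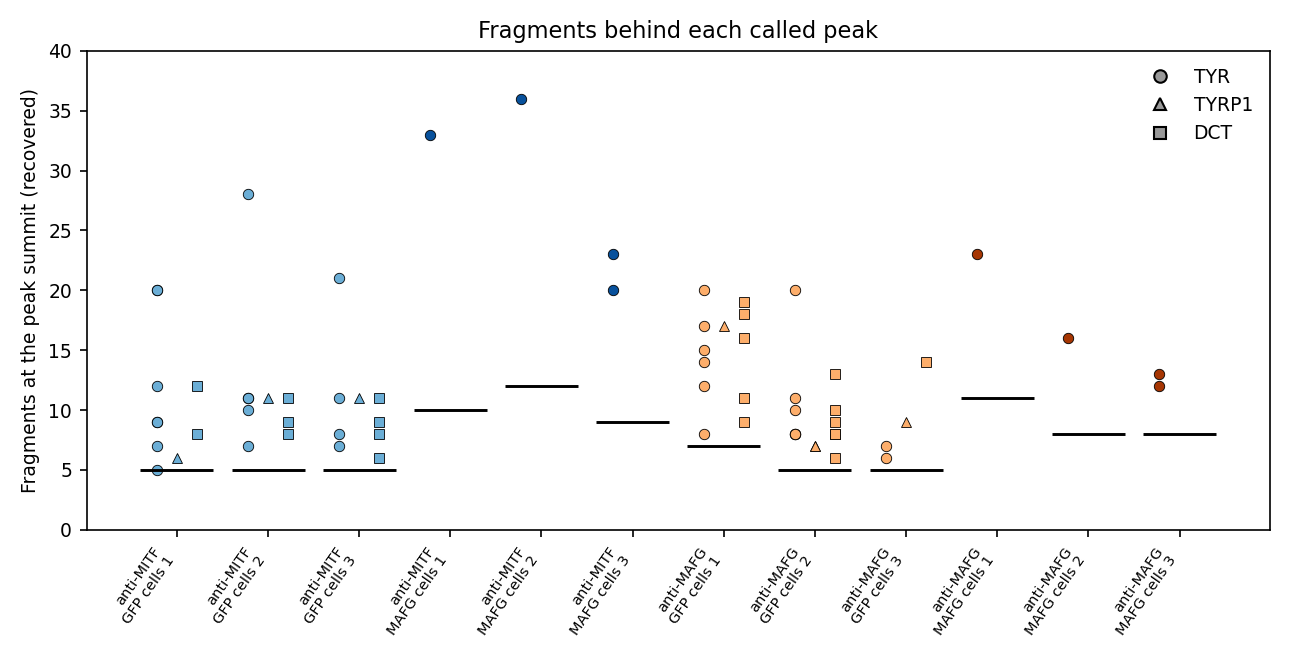
Recovered number of fragments at the summit of each TYR (circles), TYRP1 (triangles) and DCT (squares) peak in the 12 factor libraries, with a black line at the fewest fragments of any called summit examined in that library. The highest anti-MITF point of each library is the TYR upstream element, at 20, 28 and 21 fragments in the GFP libraries and 33, 36 and 23 in the MAFG libraries. In GFP replicate 1 it is tied with the peak over the TYR start. The black lines are at 5 to 7 and 8 to 12 fragments.

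A different TYR site was called with anti-MAFG in MAFG cells and in no other library. It lay within the gene, at chr11:89248797-89249851, with summits 71.76, 71.82 and 71.39 kb downstream of the start in replicates 1, 2 and 3. Fold enrichment there was 8.77, 7.95 and 5.49, at percentiles 70.8, 69.2 and 15.99 of the lists, and 23, 16 and 12 fragments covered the summits. The third replicate was the lowest on each of these measures. Regions called in 3 of 3 MAFG-cell and 0 of 3 GFP-cell libraries made up 0.348% of 34223 merged anti-MAFG regions, against 25.0% with the opposite pattern. No H3K4me3 peak of either line overlapped this TYR site. The genome was not at hand, so neither its letters nor its place in an exon or intron were read.

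A pair of TYR sites, each a region of joined peaks, held peaks of both antibodies in all 6 GFP libraries. The first, at chr11:89167870-89170113, had its strongest summit 8.98 kb upstream. Anti-MAFG folds there reached 10.5, 9.96 and 3.77 in GFP replicates 1 to 3, with 20, 20 and 7 fragments at the summit, and anti-MITF folds 6.03, 5.82 and 6.18. In MAFG cells a single library, anti-MAFG replicate 3, had a peak there, with a fold of 6.25 and its summit 9.61 kb upstream. GFP replicate 1 of anti-MAFG had separate peaks in this region. The MAFG-cell peak overlapped the one with its summit 9.64 kb upstream (fold 6.80), and not the one at 8.98 kb. The second site lay 4.95 to 6.12 kb into the gene, at chr11:89182401-89184171, and not all of its peaks overlapped each other. The anti-MAFG peak of GFP replicate 3, with its summit at 6.12 kb, overlapped neither the anti-MAFG peak of replicate 1 nor the anti-MITF peak of replicate 2. Its anti-MAFG folds were 7.38, 6.52 and 4.54 and its anti-MITF folds 8.90, 6.91 and 5.18, and no library of MAFG cells called it. GFP replicate 3 of anti-MAFG was the lowest of its group at both sites, and its list was also the shortest of the group.

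TYRP1 lies on the plus strand at chr9:12693385-12710285, and its peaks divided by antibody. The anti-MAFG peaks lay within the gene and the anti-MITF peaks far upstream, with no site shared by the antibodies. With anti-MAFG the TYRP1 window held 1, 2 and 1 peaks in GFP cells, and with anti-MITF it held 1, 1 and 1, while all 6 MAFG-cell libraries held 0. The recurrent anti-MAFG site was chr9:12703672-12704944, with summits 11.04, 11.24 and 11.03 kb into the gene, folds of 10.1, 5.26 and 6.94 and 17, 7 and 9 fragments. Replicate 1 was the highest and stood at percentile 84.5 of its list, against 31.3 and 69.7 in replicates 2 and 3. The recurrent anti-MITF site was chr9:12674764-12675729, with summits 18.3, 17.92 and 17.96 kb upstream, folds of 4.65, 6.34 and 6.85 and 6, 11 and 11 fragments. These folds stood at percentiles 14.1, 54.1 and 59.3, in the lower and middle part of each list. No list of the 14 had a peak within 1000 bp of the TYRP1 start, where the M-box core is found, and none of the TYRP1 peaks overlapped H3K4me3.

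DCT lies on the minus strand at chr13:94436811-94549406 and has 2 start sites in RefSeq. The H3K4me3 peaks lay downstream of the inner one, position 94479682, and none covered either start. In each line 1 of them came within 1000 bp of the inner start. The outer start, position 94549406, is 69724 bp further upstream, and its promoter held none of the searched motifs. Distances for DCT are counted from the inner start. With anti-MAFG the DCT window held 5, 6 and 1 peaks in GFP cells, and with anti-MITF 2, 3 and 4. All 6 MAFG-cell libraries held 0, so the lines did not overlap with either antibody. A peak in 3 of 3 GFP-cell and 0 of 3 MAFG-cell libraries was found for 22.4% of all genes with anti-MAFG, for 27.9% with anti-MITF and for 11.1% with both. Anti-MAFG replicate 3 again had the fewest peaks in GFP cells.

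At the inner DCT start both antibodies gave peaks in 3 of 3 GFP libraries, joined as chr13:94478690-94481012. The best anti-MAFG folds at this start were 4.85, 5.84 and 7.06, with summits 0.64, 0.86 and 0.82 kb upstream. The best anti-MITF folds were 6.46, 4.73 and 6.18, with summits 0.38 kb downstream and 0.43 and 0.45 kb upstream. A second recurrent site, chr13:94515959-94517471, between the starts, was called in 3 of 3 anti-MITF libraries of GFP cells, at folds of 5.98, 7.10 and 5.74 and 36.82, 37.48 and 36.81 kb upstream of the inner start, and in no anti-MAFG library. The converse held for chr13:94542585-94543561, 63.63 and 63.49 kb upstream, which was called with anti-MAFG in GFP replicates 1 and 2, at folds of 9.24 and 5.79, and never with anti-MITF. The other 6 DCT sites were called in 1 to 3 of the 12 factor libraries each.

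**Figure D4:**
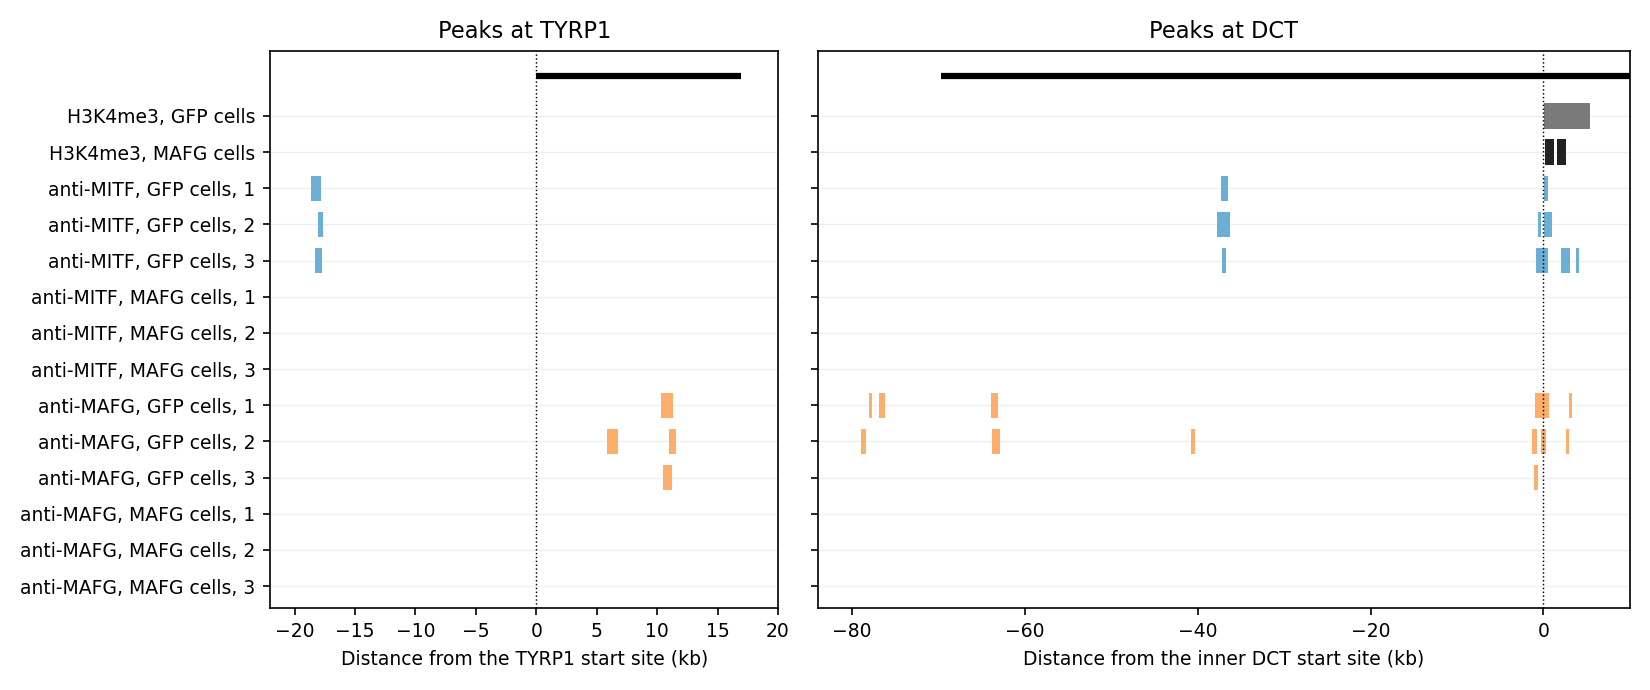
Peaks in the TYRP1 and DCT windows by library, drawn against distance from the start in kb (for DCT from the inner start), with 1 row per library, bars for peaks and the gene as a black bar on top. Every anti-MAFG and anti-MITF peak comes from GFP cells, and the MAFG-cell rows of TYRP1 are empty.

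Over the 3 genes, the merged sites of the factor libraries numbered 20. In GFP cells 7 of the 20 had peaks with both antibodies, 7 with anti-MAFG alone and 5 with anti-MITF alone. With at least 2 of 3 libraries asked of each antibody, 4 sites had both (3 at TYR and 1 at DCT), 3 had anti-MAFG alone and 3 anti-MITF alone. In MAFG cells 3 sites had a peak, all of them at TYR. The share of sites with both antibodies over the genome was not counted. Whether sharing at these genes, or its absence at TYRP1, is usual was therefore not tested.

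H3K4me3 was measured in 1 library per line, so its differences have no replicate check. At TYR it formed a broad peak over the start, 8828 bp wide in GFP cells (chr11:89177405-89186232) and 7887 bp wide in MAFG cells (chr11:89177457-89185343), at width percentiles 99.4 and 99.7. The TYR summit was covered by 107 fragments in GFP cells and 158 in MAFG cells, which is 189 and 228 times the mean of the genome. A small peak of 741 bp, 1.43 kb upstream with 8 fragments, marked the TYR upstream element in GFP cells. Its summit stood at 14.1 times the mean, below the 17.3 times of the lowest summit examined in the MAFG-cell list, where no such peak was called. At DCT a peak of 5351 bp in GFP cells (chr13:94474299-94479649) ended next to the inner start, with 38 fragments at its summit, or 67.0 times the mean. In MAFG cells DCT had 2 narrower peaks of 1023 and 978 bp, with 35 and 26 fragments, or 50.4 and 37.5 times the mean. The authors' fold at the TYR summit was 40.3 for the GFP line against 22.1 for the MAFG line, the opposite order to the multiples of the mean, and the recovered scale of the MAFG-cell library was 0.35 against 1.0. No direction is therefore given for TYR. At DCT the fold was 24.7 for the GFP line against 6.62 and 5.79 for the MAFG line, so fold, multiple of the mean and width were all lower in the MAFG-cell library. The whole MAFG-cell list also had a lower median fold (15.3 against 28.3) and a lower median width (1781 against 2160 bp). How far this and the scale bear on the DCT values was not tested. TYRP1 had no H3K4me3 peak anywhere in its window in either line, a state shared by 30.8% of the 20033 genes. In GFP cells 10 of 14 anti-MAFG and 11 of 16 anti-MITF peaks of the TYR window overlapped H3K4me3 of the same cells. For DCT it was 4 of 12 and 5 of 9. In MAFG cells it was 0 of 4 for TYR with each antibody. The share over all factor peaks was not counted. Over 15842 genes with a listed start, a peak within 1000 bp of it was found for 60.0% in GFP cells, for 56.2% in MAFG cells and in neither line for 39.9%.

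The first comparison asked whether the windows of the enzyme genes held fewer peaks when MAFG was overexpressed. The mean number of peaks fell at all 3 genes. For TYR it was 4.67 ± 2.31 (SD, n = 3) in GFP cells and 1.33 ± 0.577 (SD, n = 3) in MAFG cells with anti-MAFG, and 5.33 ± 1.53 and 1.33 ± 0.577 with anti-MITF. For DCT it was 4.0 ± 2.65 with anti-MAFG and 3.0 ± 1.0 with anti-MITF in GFP cells, and for TYRP1 1.33 ± 0.577 and 1.0 ± 0, each against 0 in MAFG cells. A two-sided exact permutation test, with line labels exchanged within each antibody and p-values adjusted by the Benjamini-Hochberg method over 12062 genes, gave a difference of -3.67 peaks for TYR (adjusted p = 0.0298). It gave -1.17 for TYRP1 and -3.50 for DCT (adjusted p = 0.0159 for each, exact p = 0.005, the smallest that 400 assignments allow). The same test called 52.8% of the genes tested as lower and 0.00829% as higher in MAFG cells, so a fall was the common state and is not particular to these genes. The median difference over all genes tested was -1.17 peaks, and 6.67% of genes had a lower difference than TYR, 46.3% than TYRP1 and 7.50% than DCT. The TYR and DCT windows were longer than those of 86.2% and 85.4% of genes, the TYRP1 window than that of 40.8%. Within 1 antibody 3 libraries against 3 cannot go below p = 0.1, which was reached in every case but TYR with anti-MAFG (exact p = 0.2).

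**Figure D5:**
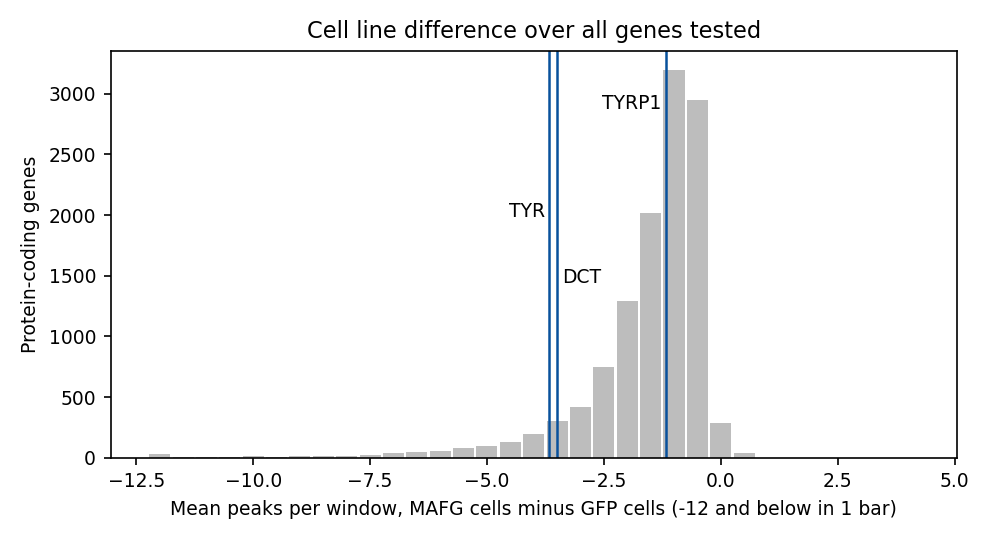
Distribution over 12062 genes of the difference in mean peaks per window, MAFG cells minus GFP cells, with lines at TYR, TYRP1 and DCT (differences of -12 and below share the first bar, those of 4 and above the last). TYRP1 sits at the median of -1.17, and TYR at -3.67 and DCT at -3.50 lie in the lower tail.

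Asked of single groups, a window was called when at least 2 of 3 libraries had a peak in it. All 3 enzyme genes were called with anti-MAFG in GFP cells, as were 46.3% of all genes, and all 3 with anti-MITF in GFP cells, as were 56.2%. In MAFG cells TYR alone was called, with anti-MAFG (6.47% of genes) and with anti-MITF (10.5%). The same members were called when 3 of 3 libraries were asked for, which 31.2% and 44.5% of genes met in GFP cells with anti-MAFG and anti-MITF, and 4.11% and 6.27% in MAFG cells. The windows of TYR, TYRP1 and DCT held 7, 2 and 7 merged regions with anti-MAFG and 7, 1 and 4 with anti-MITF. Of these, 3 with anti-MAFG and 5 with anti-MITF were called in all GFP-cell and no MAFG-cell libraries. The shares over all regions of each antibody were 25.0% and 26.5%, and the members were not tested against them. None at the members was called in all 6 anti-MAFG libraries (1.79% of regions) or in MAFG cells alone with anti-MITF (0.0101%).

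The shorter lists of MAFG cells went along with a higher level that a summit had to reach. The lowest called summit among the peaks examined had 5 to 7 fragments in the GFP-cell factor libraries and 8 to 12 in the MAFG-cell ones, or 9.21 to 12.9 and 19.2 to 21.8 times the mean coverage. Of the 12 DCT peaks with anti-MAFG in GFP cells, 7 stood below the lowest summit of all 3 MAFG-cell lists of that antibody and 4 above all of them. Of the 9 DCT peaks with anti-MITF, 4 stood below and 2 above. For TYRP1 2 of 4 anti-MAFG peaks and 1 of 3 anti-MITF peaks stood below, and 1 of each above. For TYR 9 of 14 anti-MAFG peaks and 6 of 16 anti-MITF peaks stood below, and 3 and 8 above. A missing MAFG-cell peak at the summits below those levels was therefore not detectable as a difference, and the part of list length in the falls was not tested. Each level is the lowest found in its list, so a summit above it was not shown to be detectable either.

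With each list reduced to its best 1836 peaks by −log10 q, TYR showed no fall. Lists of equal length cannot show a general fall in peak number. With anti-MITF the TYR window then held 1 peak in each GFP library, against 1, 1 and 2 in the MAFG libraries, and with anti-MAFG 0 in each GFP library, against 1, 1 and 0. TYRP1 and DCT had 0 in all 12 libraries, so no fall could show at them. The difference for TYR turned to 0.5 peaks higher in MAFG cells (two-sided exact permutation test, adjusted p = 0.466).

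The second comparison asked whether the windows held more peaks with anti-MITF than with anti-MAFG. The difference, anti-MITF minus anti-MAFG, was 0.333 peaks for TYR, -0.167 for TYRP1 and -0.5 for DCT (exact permutation p = 0.84, 1.0 and 0.7, all adjusted p = 1.0), smaller than the spread between replicates of TYR and DCT. The test called 0 of 12062 genes (0.0%), with 1067 genes at an unadjusted p under 0.05. What differed between the antibodies at TYRP1 and DCT was where the peaks lay, as given above, and this was not tested.

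The other genes of the pigment pathway were taken from a list of 14 (PMEL, MLANA, GPR143, SLC45A2, SLC24A5, OCA2, ATP7A, RAB27A, RAB38, MC1R, MITF, TRPM1, GPNMB, TPCN2). Of the 11 that had enough peaks to be tested, 5 fell in MAFG cells and 0 rose, with a median difference of -1.50 peaks against -1.17 for all genes. A fall was called for 52.8% of all genes tested, so falls were no more frequent in the list. Those that fell were MITF, by 13.7 peaks, SLC24A5, a melanosomal exchanger, by 3.83, RAB27A, which carries melanosomes to the cell edge, by 3.67, RAB38, which traffics tyrosinase family cargo, by 2.33, and MC1R, the melanocortin receptor, by 1.0. The adjusted p of the exact permutation test was 0.0159 for MITF, SLC24A5 and RAB27A and 0.0379 for RAB38 and MC1R. In GFP cells 7 of the 14 windows were called with anti-MAFG and 11 with anti-MITF, and in MAFG cells 2 and 6. The shares over all genes were 46.3% and 56.2% for the GFP line, against 6.47% and 10.5% for the MAFG line, and the list was not tested against them. H3K4me3 was at the start or a gene end of all but OCA2 and TRPM1 in GFP cells, and in MAFG cells GPR143 lacked it too.

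Genes with the most similar pattern to each enzyme gene were found by the percentile of the best peak in their window over the 14 libraries, as a Euclidean distance in percentile points. The nearest to TYR were TRIP12 (51.5), ANXA4 (58.1) and SLC38A6 (69.5). Among the nearest to TYRP1 were GASK1A (29.3) and CD101 (37.6), and the nearest to DCT were BLOC1S5 (22.7), TSEN15 (23.8) and HACL1 (31.9). The distances are descriptive and were given no test.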

How the data were processed

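CUT&RUN peak lists of 14 libraries were analysed, in narrowPeak layout and called per library. Per the submitters' processing notes the tools included cutadapt 1.8.1, Bowtie2 2.4.1 and MACS2 2.1.1.20160309, with build GRCh38. The deposited fold enrichment is the authors' linear ratio per peak, and the deposited −log10 values are the authors' −log10 p and −log10 q, the lowest −log10 q being 2.0. Folds were used only within a list. The depth of the libraries is not given in the lists, and the control used in calling is not given in the sources used here.

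Genes, start sites and promoters came from the RefSeq tables of GRCh38.p14. A peak belonged to a gene when it overlapped the gene body with 20 kb on either side by at least 1 bp. Peaks per window were compared over all protein-coding genes with at least 3 peaks in the 12 factor libraries, by two-sided exact permutation tests with Benjamini-Hochberg adjustment (threshold 0.05), in Python 3.11.15 with numpy 2.4.6, pandas 2.3.3 and scipy 1.17.1. The test was tried on simulated data with known answers.

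Fragments at a summit were recovered, as a step added after the data were seen, from fold = (pileup + 1) / (background + 1) and the Poisson p. All 1500 peaks tried per library gave whole fragments at 1 scale, against 15.6 to 29.2% at 0.9 of that scale (tolerance 0.01). The scale was 0.969 to 1.0 in GFP-cell and 0.452 to 0.637 in MAFG-cell factor libraries. The mean coverage of the genome was taken as the lowest background recovered among the peaks tried of a library. Of those peaks, 11.4 to 25.8% by library had that background. All multiples of the mean rest on this assumption, which was not checked against coverage. Of the 72 member peaks, 4 allowed more than 1 whole solution. The fragments of those 4 are not given singly. Counting error alone makes a summit of 6 to 20 fragments imprecise.

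The members and lists were chosen with earlier results of these data known. Named genes are the 3 members, the 3 genes nearest in pattern to each (1 of these is not reported here), and list genes where a count was 5 or fewer. Pattern values were percentiles of the best fold in the window (0 with no peak), leaving out genes whose windows overlap a member's.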

Additional observations from a re-analysis of the deposited data

How the results depend on the processing

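With lists of equal length (the best 1836 peaks), the difference between lines for TYR turned to 0.5 over both antibodies, 0.667 with anti-MAFG and 0.333 with anti-MITF, TYRP1 and DCT had no peaks to test, and 0 genes were called (smallest adjusted p = 0.293 by exact permutation). At a −log10 q of at least 5 the fall no longer passed the exact permutation test for TYR (-1.83, adjusted p = 0.122) and TYRP1 (-0.667, adjusted p = 0.129). With 5 kb on either side it no longer passed the exact test for TYRP1 (-0.667, adjusted p = 0.126). Other windows, covered base pairs, summits in place of overlap and a lower peak minimum kept all 3 calls. Leaving out each of the 12 libraries in turn kept all 3 calls, with ranges of -4.33 to -3.25 for TYR, -1.25 to -1.0 for TYRP1 and -4.25 to -3.0 for DCT, a highest adjusted p of 0.0413, and 5829 to 7805 genes called against 6371. The antibody difference ranged from -0.333 to 0.667 for TYR, and it turned negative without the GFP anti-MAFG replicate 3 (-0.333) and without the GFP anti-MITF replicate 1 (-0.0833). It ranged from -0.25 to 0.0 for TYRP1 and from -1.25 to 0.0 for DCT. Other settings moved it further, to 0.833 for TYR with lists of equal length (exact permutation p = 0.03, adjusted p = 0.16), -0.667 for TYRP1 with 5 kb (adjusted p = 0.35) and -1.83 for DCT with 50 kb (adjusted p = 0.595), and in covered base pairs TYR gave 1486 bp more with anti-MITF (exact permutation p = 0.035, adjusted p = 0.203). Within anti-MAFG the ranges were -4.67 to -2.67 for TYR, -1.5 to -1.0 for TYRP1 and -5.5 to -3.0 for DCT, and within anti-MITF -4.67 to -3.17, -1.0 to -1.0 and -3.5 to -2.5. With 50 kb on either side DCT had 2 H3K4me3 peaks in GFP cells, against 1, and 3 in MAFG cells, against 2. The replicate block gave the same differences (TYR -3.67, TYRP1 -1.17, DCT -3.5) with adjusted p of 0.116, 0.0942 and 0.0942 and 0 genes called, since its 64 assignments could not give an adjusted p below 0.0942 here. Libraries of the same number did not deviate together (12 pairs, r from -0.132 to 0.0264), so the numbers were not taken as a pairing. With 6 to 28 fragments at most summits and H3K4me3 in 1 library per line, small differences at single sites could not be resolved.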
